A study of Homo sapiens with 10 samples.

Results

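The genes described here are 9 integrin subunits and dystroglycan, 10 genes chosen by their symbols among the 60554 genes in the count tables: the alpha subunits ITGA1, ITGA2, ITGA3, ITGA6 and ITGAV, the beta subunits ITGB1, ITGB4, ITGB5 and ITGB6, and DAG1. They were measured in Caco-2 cells, a line from a human colon carcinoma that polarizes into an epithelial monolayer. All libraries came from 1 stable clone expressing dCas9-KRAB, a cleavage-dead Cas9 fused to a transcriptional repressor domain and kept under puromycin. Lentivirus with hygromycin selection then added guide g1 (3 libraries) or guide g2 (2 libraries) against the long non-coding RNA LHFPL3-AS2, or the guide plasmid without a guide (gCtl, 5 libraries). RNA was taken from cells seeded as monolayers and sequenced from the 3' ends of polyadenylated transcripts. The question put to these genes was whether the RNA for the cell's matrix receptors differed between cells with a guide and gCtl.

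Integrins are heterodimers of 1 alpha and 1 beta subunit that hold epithelial cells to the extracellular matrix and connect it to the cytoskeleton. In the gut epithelium, subunits that pair with beta 1 bind laminins and collagens, alpha 6 beta 4 is the core of the hemidesmosome, and alpha V pairs with beta 1, beta 5 or beta 6 to bind RGD-containing ligands such as vitronectin, fibronectin and latent TGF-beta. Dystroglycan is encoded by DAG1 as a single precursor that is cut into an extracellular alpha part, which binds laminin through a specialised sugar chain, and a membrane-spanning beta part, which binds dystrophin or utrophin inside the cell.

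Library totals ran from 3838803 to 8730468 estimated counts. LHFPL3-AS2 itself was at 0.84 to 3.73 RPM (reads per 1000000 of the library) in gCtl, 2.03 to 3.95 in g1 and 2.16 to 6.01 in g2, on 4.39 to 44 counts per library. A lower target was not seen at this depth in the libraries labelled with a guide, and g1 and g2 are used below as labels. Of the enterocyte markers checked, EPCAM was at 670 to 872 RPM and VIL1 at 122 to 187 in every library. KRT8 (98.1 to 312 RPM), KRT18 (248 to 677), FABP1 (6.87 to 38.5) and KRT20 (1.08 to 9.97) varied more between libraries, and SI, which marks differentiated brush border, reached at most 2.86. The summed fibroblast markers stayed between 5.28 and 10.9 RPM in gCtl and between 5.23 and 10.8 with a guide, and the leukocyte marker PTPRC reached at most 1.12 RPM. The summed endothelial markers were at 2.15 to 3.66 RPM in gCtl and 2.2 to 10.1 with a guide, nearly all of it PECAM1 (at most 9.9), while VWF and CDH5 stayed at or below 0.695 and 0.529; their part in the results was not tested. The labels do not say whether libraries of a group came from separate cultures, so p-values measure the spread between these libraries, which may be technical. Per-library values below are CPM (counts per 1000000, TMM-scaled), in the order of the replicate numbers.

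DAG1 and ITGB5 were lower with either guide, and ITGA1 was lower with g1. With both guides together as 1 group, DAG1 was 2.71-fold, ITGB5 2.23-fold and ITGA1 1.54-fold lower than in gCtl. These 3 were called, that is, their adjusted p in edgeR's quasi-likelihood test (Benjamini-Hochberg, over all genes tested) was 0.05 or less and they differed by 1.5-fold or more. In bulk RNA, fewer cells that express a gene and less RNA per cell cannot be told apart. The other 6 members tested (ITGA2, ITGA3, ITGA6, ITGAV, ITGB1 and ITGB4) were not called, and ITGB6 was too low to be tested. Of all 11640 genes tested, 11.0% were called lower and 8.14% higher in this comparison, which is the rate against which 3 lower and 0 higher of 9 members stand. DAG1, ITGB5 and ITGA1 were also the members whose 5 guide libraries all lay below all 5 gCtl libraries, which 8.33% of the genes tested did. For 0 of the 9 tested members called higher, 0 had an unadjusted p under 0.05 in that direction, and DESeq2 and limma on log2(TPM + 1) also called 0 higher.

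**Figure D1:**
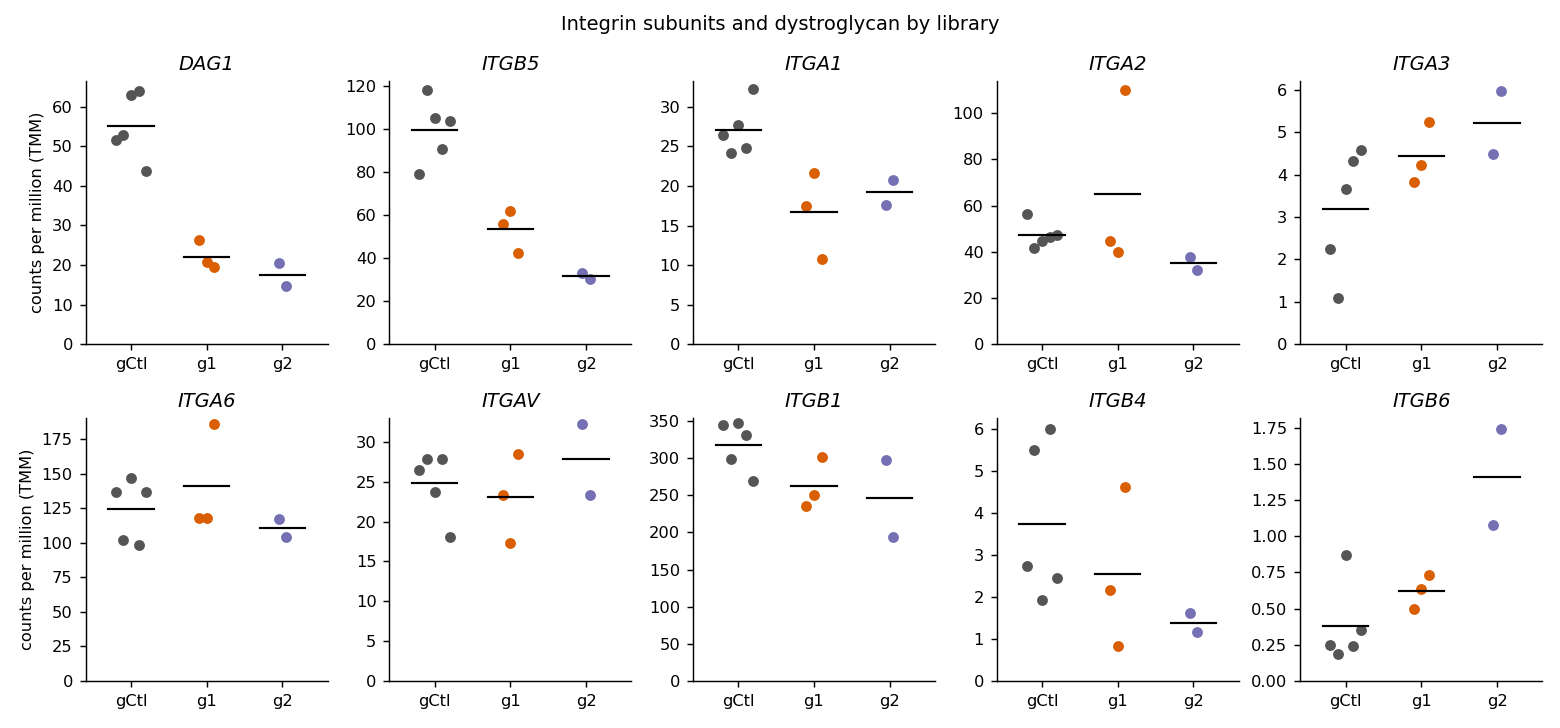
CPM after TMM scaling (y axes, linear from 0, a different scale for each gene) of the 10 genes in each of the 5 gCtl, 3 g1 and 2 g2 libraries. Points are libraries and horizontal lines are group means; DAG1, ITGB5 and ITGA1 show no overlap between gCtl and the libraries with a guide.

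Against gCtl by guide, DAG1, ITGB5 and ITGA1 were called lower with g1 (3 of 9, where 9.91% of all genes tested were called lower and 6.81% higher). With g2, DAG1 and ITGB5 were called lower (2 of 9, background 13.0% lower and 10.7% higher). Between the guides, ITGB5 alone among the 9 was called lower with g2 than with g1 (background 3.42% lower and 1.55% higher). None of the 9 tested members was called higher in these 3 comparisons, 0 of them had an unadjusted p under 0.05 in that direction by edgeR, and DESeq2 and limma each called 0 higher. The comparisons of g1 and of g2 share the same 5 gCtl libraries, so they are not independent of each other.

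**Figure D2:**
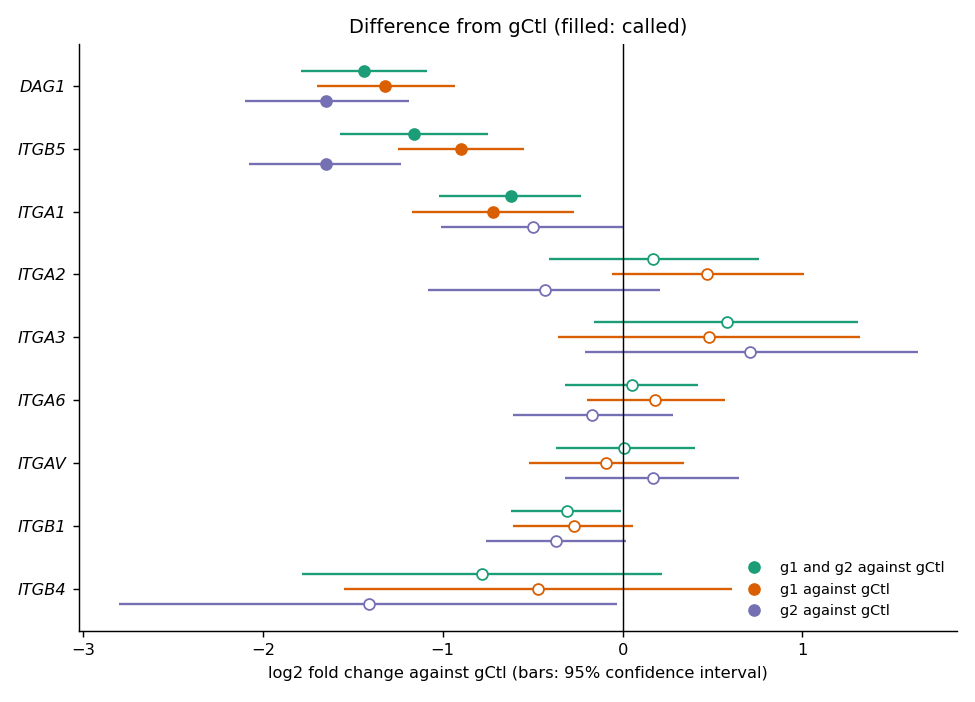
Log2 fold change against gCtl (x axis) of the 9 members that passed the filter on low values, for both guides together, g1 and g2. Bars are 95% confidence intervals from the edgeR fit and filled points are called; the called values run from -1.65 (DAG1 and ITGB5 with g2) to -0.62 (ITGA1 with both guides together).

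DAG1, the dystroglycan precursor gene (ENSG00000173402.11, chr3:49468703-49535618, GRCh38, plus strand), had 51.5, 52.9, 63, 64 and 43.8 CPM in gCtl. In g1 it had 26.2, 20.7 and 19.5 CPM, and in g2 20.4 and 14.8 CPM. Every guide library was below the lowest gCtl library, and the g1 and g2 values overlapped. The mean was 55 ± 8.47 CPM (SD, n = 5) in gCtl, 22.1 ± 3.56 (n = 3) in g1 and 17.6 ± 3.97 (n = 2) in g2. In log2, DAG1 changed by -1.44 for both guides together (SE 0.16, 95% confidence interval -1.79 to -1.09, edgeR adjusted p = 7.25e-05), -1.32 for g1 (SE 0.18, adjusted p = 0.000245) and -1.65 for g2 (SE 0.22, adjusted p = 0.000118). Between g2 and g1 the difference was -0.33, with an interval of -0.81 to 0.15.

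The counts of DAG1 lay on full-length transcripts, 97.1% of them on transcripts that end within 200 bases of the gene's 3' end, and 92.1% on the 5576-base transcript DAG1-201. Transcripts shorter than 1000 bases held 4 counts in all of gCtl, 44.1 in g1 and 9.71 in g2. They are few, but division by length weights them heavily, and in TPM, counts divided by transcript length and rescaled, limma no longer called DAG1 for both guides together (log2 fold change -0.73, adjusted p = 0.0515) or for g1 (-0.37, adjusted p = 0.253). Over the longer transcripts alone, DAG1 was at 13 ± 2.24 TPM in gCtl (n = 5), 4.71 ± 0.97 in g1 (n = 3) and 3.54 ± 0.943 in g2 (n = 2).

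ITGB5 (ENSG00000082781.11, chr3:124761948-124901418, minus strand), the beta subunit that joins alpha V in a vitronectin receptor, had 79, 118, 105, 91 and 104 CPM in gCtl. In g1 it had 56.1, 61.8 and 42.6 CPM and in g2 33 and 30.4 CPM. Here the 3 groups did not overlap at all: every g2 library was below every g1 library, and every g1 library below gCtl. The mean was 99.5 ± 15 CPM in gCtl (SD, n = 5), 53.5 ± 9.87 in g1 (n = 3) and 31.7 ± 1.85 in g2 (n = 2). In log2, ITGB5 changed by -1.16 for both guides together (SE 0.19, interval -1.57 to -0.75, edgeR adjusted p = 0.000962), -0.90 for g1 (SE 0.16, adjusted p = 0.00165) and -1.65 for g2 (SE 0.20, adjusted p = 6.13e-05). For g1 alone the call was lost when glmTreat tested against a 1.5-fold minimum (adjusted p = 0.132). The difference of g2 from g1 was -0.75 (SE 0.21, interval -1.19 to -0.31), close to the threshold with an adjusted p of 0.0479, and 9 of 15 alternative settings no longer called it; each of them kept it negative. Of its counts 95.8% were on the 4372-base transcript ITGB5-001, and the antisense gene ITGB5-AS1 had 0 counts in each library.

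ITGA1 (ENSG00000213949.8, chr5:52787896-52959210, plus strand), the alpha 1 subunit of a collagen receptor with beta 1, had 26.5, 24.2, 27.7, 24.8 and 32.2 CPM in gCtl. In g1 it had 17.5, 21.7 and 10.8 CPM and in g2 17.6 and 20.8 CPM. All guide libraries were below all gCtl libraries, with g1 replicate 2 the nearest to them. The difference in log2 was -0.62 for both guides together (SE 0.19, interval -1.02 to -0.23, edgeR adjusted p = 0.0245) and -0.72 for g1 (SE 0.21, adjusted p = 0.0263). For g2 it was -0.50 (SE 0.24, interval -1.01 to 0.01, adjusted p = 0.138), and g2 and g1 differed by 0.22 with an interval of -0.33 to 0.77. The call rested on single libraries: without g1 replicate 3, the lowest, the log2 fold change was -0.49 in both comparisons and not called. It was also lost without gCtl replicate 3 (-0.61 for both guides together, -0.71 for g1), without gCtl replicate 5 for both guides together (-0.56) and without g1 replicate 1 for g1 (-0.76). Both calls were also lost over protein-coding transcripts alone (-0.64 and -0.72), under limma on TPM (-0.54 and -0.57) and under glmTreat. Of the ITGA1 counts 74.6% were on the 10757-base transcript ITGA1-001 and 15.3% on the retained-intron transcript ITGA1-003. PELO, which lies inside ITGA1 on the same strand and shares 447 of 18542 ITGA1 31-mers (2.41%), had 7.39 to 10 CPM in gCtl and 2.91 to 11.1 with a guide.

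Because these 3 genes were lower together, the 250 bases before a RefSeq start of each are shown (GRCh38.p14), 5' to 3' on the gene's strand. The windows were taken at the RefSeq start nearest to the start of the protein-coding transcript with most counts, 1429 bases away for DAG1, 68 for ITGB5 and 20 for ITGA1. Capitals mark the GC box GGGCGG on either strand.
DAG1, chr3:49469882-49470131, plus strand: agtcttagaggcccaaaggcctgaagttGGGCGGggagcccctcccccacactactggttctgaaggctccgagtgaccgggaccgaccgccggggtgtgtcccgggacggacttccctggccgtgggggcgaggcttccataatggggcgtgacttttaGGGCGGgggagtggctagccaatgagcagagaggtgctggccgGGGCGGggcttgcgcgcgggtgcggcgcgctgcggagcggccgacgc
ITGB5, chr3:124887366-124887615, minus strand: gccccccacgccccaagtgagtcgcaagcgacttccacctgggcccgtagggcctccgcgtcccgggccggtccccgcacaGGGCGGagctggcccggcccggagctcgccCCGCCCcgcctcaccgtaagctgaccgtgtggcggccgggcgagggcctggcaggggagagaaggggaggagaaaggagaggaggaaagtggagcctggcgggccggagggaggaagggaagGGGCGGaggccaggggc
ITGA1, chr5:52787666-52787915, plus strand: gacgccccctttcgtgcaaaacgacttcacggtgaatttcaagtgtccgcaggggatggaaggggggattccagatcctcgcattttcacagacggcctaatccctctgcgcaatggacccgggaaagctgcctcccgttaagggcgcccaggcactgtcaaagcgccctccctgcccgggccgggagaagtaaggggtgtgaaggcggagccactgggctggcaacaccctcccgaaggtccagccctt
The DAG1 and ITGB5 windows each held 3 GC boxes, and the ITGA1 window held 0. A GC box was present in 42.6% of the 35116 RefSeq promoter windows of this length. A CCAAT box (CCAAT, either strand) was found once in the DAG1 window, against 32% of all windows with 1 or more, and a TATA box (TATAAA, either strand) in none of the 3 windows, against 10.7% of all. ITGA2 and ITGA6, which were not called, had 4 and 3 GC boxes in their windows. These letters are a description of the windows and not of any factor's binding.

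ITGA2 (ENSG00000164171.10, chr5:52989326-53094779, plus strand), which pairs with beta 1 in the main epithelial collagen receptor, had 56.2, 41.7, 44.5, 46.2 and 47.3 CPM in gCtl. In g1 it had 44.7, 39.7 and 110 CPM, and in g2 37.7 and 32.3 CPM. The third g1 library thus stood apart from the other two, while both g2 libraries were below every gCtl library. The log2 fold change of g2 against gCtl was -0.43 (SE 0.30, interval -1.08 to 0.21, edgeR adjusted p = 0.309). For g1 it was 0.47 (interval -0.06 to 1.01, adjusted p = 0.203), and without g1 replicate 3 it was -0.18. That library held 905 ITGA2 counts, of which 23.6% were on the nonsense-mediated-decay transcript ITGA2-004, against at most 8.78% in gCtl. The ratio of ITGA2 to ITGA1 counts was 1.75 ± 0.247 in gCtl (SD, n = 5), 4.86 ± 4.63 in g1 (n = 3) and 1.85 ± 0.417 in g2 (n = 2).

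Among the laminin receptors, ITGA6 (ENSG00000091409.14, chr2:172427354-172506282, plus strand), the alpha 6 subunit that joins beta 1 or beta 4, was the second most abundant member. It had 137, 102, 147, 98 and 137 CPM in gCtl, 118, 118 and 186 in g1, and 117 and 104 in g2, and the groups overlapped. Its log2 fold change for both guides together was 0.05 with an interval of -0.32 to 0.42, and its sign turned with the library totals as scaling (-0.04). Of its counts 58.1% were on the 5306-base transcript that reaches the gene's 3' end and 26% on the 3544-base transcript ITGA6-003, with shares of ITGA6-003 of 18.2 to 31.4% in gCtl libraries and 21.8 to 31.7% in guide libraries.

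ITGA3 (ENSG00000005884.17, chr17:50055968-50090481, plus strand), whose product binds laminin with beta 1, had 1.1 to 4.57 CPM in gCtl and 3.83 to 5.96 with a guide. These values cannot be read as the level of the coding mRNA, because 0 of its 231 counts were on its 4 protein-coding transcripts and 87.9% were on the retained-intron transcript ITGA3-006, which ends at the gene's 3' end. Its log2 fold change for both guides together was 0.58 (SE 0.35, interval -0.16 to 1.31, edgeR adjusted p = 0.237).

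ITGB4 (ENSG00000132470.13, chr17:75721328-75757818, plus strand), the hemidesmosomal beta subunit, was low, with 2.75, 5.51, 1.92, 6.02 and 2.46 CPM in gCtl. It had 2.17, 0.844 and 4.63 CPM in g1 and 1.61 and 1.16 in g2. The 2 g2 libraries, with 9.05 and 8 counts, were below every gCtl library, and g1 overlapped gCtl. In log2 the differences were -0.78 for both guides together (SE 0.47, interval -1.78 to 0.22, edgeR adjusted p = 0.242) and -1.41 for g2 (SE 0.65, interval -2.80 to -0.03, adjusted p = 0.12). A change of this size was not separable from the library spread at this depth by edgeR, while limma on TPM called it for g2 (-1.39, adjusted p = 0.0231). Most of the counts, 69.6%, were on ITGB4-014, a 688-base transcript at the 3' end. ITGA6 outnumbered ITGB4 in counts by 43.4 ± 25.7 to 1 in gCtl (SD, n = 5), 78 ± 54.2 in g1 (n = 3) and 80.9 ± 12 in g2 (n = 2). By TPM, in which the short ITGB4-014 weighs more, the ratio was 10.6 ± 6.12 in gCtl, 20.3 ± 8.42 in g1 and 28.9 ± 10.3 in g2.

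ITGAV (ENSG00000138448.11, chr2:186590065-186680901, plus strand), the alpha V subunit and the partner of beta 5, had 26.5, 27.9, 23.7, 27.9 and 18.1 CPM in gCtl, 23.3, 17.3 and 28.5 in g1 and 32.3 and 23.4 in g2. The groups overlapped, and the log2 fold change was 0.01 for both guides together (interval -0.37 to 0.40), turning to -0.09 with the library totals as scaling. With ITGB5 lower and ITGAV near its gCtl level, the ratio of ITGAV to ITGB5 counts was 0.256 ± 0.0653 in gCtl (SD, n = 5), 0.454 ± 0.197 in g1 (n = 3) and 0.874 ± 0.147 in g2 (n = 2). This ratio was added after the values were seen and was not tested.

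ITGB6 (ENSG00000115221.10, chr2:160099666-160200313, minus strand), the epithelial beta 6 subunit that with alpha V binds latent TGF-beta, was close to the limit of detection. It had 1, 1, 5, 1 and 2 counts in gCtl, 3, 3 and 6 in g1, and 6 and 12 in g2, which is 0.184 to 0.872 CPM in gCtl, 0.5 to 0.731 in g1 and 1.08 to 1.74 in g2. Both g2 libraries were above every gCtl library. It failed the filter on low values, and 911 of the 4817 31-mers of its transcripts (18.9%) also occur in AC092153.1 on the same strand. When every gene with 10 or more counts was fitted, coding or not, ITGB6 gave a log2 fold change for g2 of 1.73 (SE 0.80, interval 0.07 to 3.39, edgeR adjusted p = 0.156). The ratio of ITGB6 to ITGB5 counts was 0.00381 ± 0.00262 in gCtl (SD, n = 5), 0.0121 ± 0.00442 in g1 (n = 3) and 0.045 ± 0.0175 in g2 (n = 2), so ITGB5 remained the larger by far in each group.

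ITGB1 (ENSG00000150093.18, chr10:32900319-33005792, minus strand), the shared beta subunit of most of these receptors, was the most abundant member. It had 345, 299, 347, 332 and 269 CPM in gCtl, 236, 251 and 302 in g1 and 298 and 194 in g2. The groups overlapped. The log2 fold change for both guides together was -0.31 (SE 0.14, interval -0.62 to -0.01, edgeR adjusted p = 0.126), and it was -0.27 for g1 and -0.37 for g2. The g2 libraries differed from each other: without g2 replicate 1 the log2 fold change of g2 was -0.72 and called (adjusted p = 0.019), a fit in which the 1 remaining g2 library is assumed to vary like the other groups.

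The ITGB1 count depends on a pseudogene. ITGB1P1 (ENSG00000269378.1, chr19:14621634-14622242, minus strand) is a processed copy of 609 bases, and each of its 579 31-mers also occurs in ITGB1 transcripts, so 3'-end reads from either cannot be told apart in that stretch. Kallisto placed 273 to 985 counts per library on it. It took 21.4 ± 5.38% of the joint counts in gCtl (SD, n = 5), 31 ± 4.62% in g1 (n = 3) and 21.6 ± 8.01% in g2 (n = 2), and the ranges overlapped. Summed with ITGB1, the level was 417 ± 25.4 RPM in gCtl, 380 ± 21 in g1 and 287 ± 50.3 in g2. For the sum, the log2 fold change was -0.20 for both guides together (interval -0.48 to 0.09), -0.09 for g1 (interval -0.37 to 0.20) and -0.38 for g2 (interval -0.71 to -0.04, edgeR adjusted p = 0.0875), and none was called. The sum was chosen after the data were seen.

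**Figure D3:**
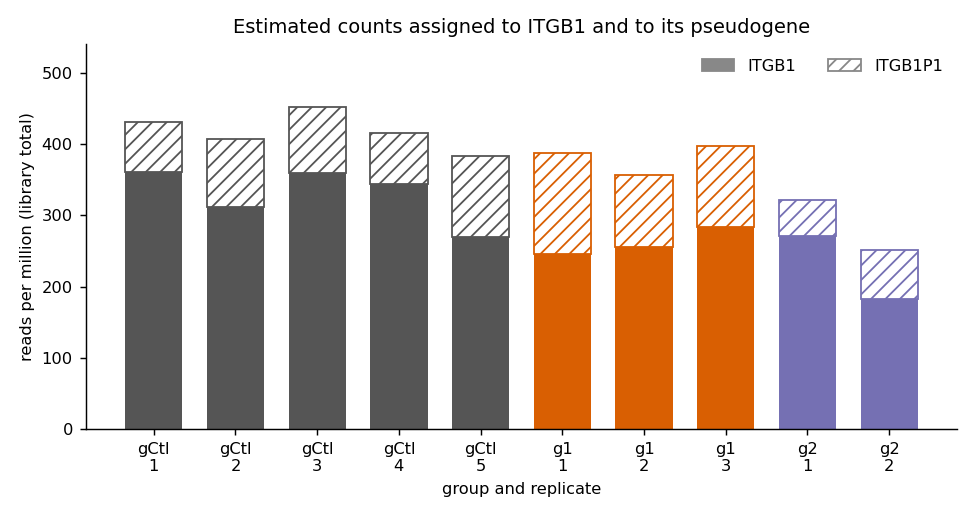
RPM (y axis) assigned to ITGB1 (filled) and to its processed pseudogene ITGB1P1 (hatched, stacked on top) in each library (x axis). The stacked level is 383 to 451 in gCtl, 357 to 397 in g1 and 322 and 251 in g2.

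Levels between genes were compared per length, in TPM, with the reservation that reads from 3' ends do not grow with transcript length. In gCtl, ITGB1 was highest at 392 ± 59.2 TPM (SD, n = 5), followed by ITGA6 at 57.6 ± 11.3, ITGB5 at 32 ± 4.49 and DAG1 at 13.5 ± 2.28. ITGA2 followed at 8.73 ± 1.27, then ITGB4 at 6.78 ± 3.08, ITGAV at 5.91 ± 0.863 and ITGA1 at 5.7 ± 0.889, and from ITGA2 down to ITGA1 each gene was within the spread of its neighbour. By RPM, without division by length, ITGB4 moved from rank 6 to 8 and ITGA1 from 8 to 6, and no other rank changed. The distance of ITGB1 from the rest depends on the scale. Of its counts 26.1% were on the 445-base transcript ITGB1-006, which division by length weights heavily. By RPM, ITGB1 was at 329 and ITGA6 at 128 in gCtl. ITGA3 was at 1.39 ± 0.613 and ITGB6 at 0.161 ± 0.128 TPM. In g2, ITGB5 at 8.8 ± 0.19 TPM and ITGAV at 8.41 ± 2.37 (n = 2) were within their spread of each other. DAG1 relative to ITGB1, in counts, was at 0.173 ± 0.0171 in gCtl, 0.086 ± 0.0233 in g1 and 0.0724 ± 0.0054 in g2. By TPM the same ratio was 0.0343 ± 0.00277, 0.0306 ± 0.00873 and 0.0196 ± 0.00659, so g1 and gCtl then lay within their spread of each other. Short transcripts of both genes weigh more in the TPM ratio.

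The genes whose profile over the 10 libraries was most like that of DAG1, measured as the root mean square difference of log2 CPM after each gene was centred on its gCtl mean, were LAPTM4A (0.15), SLC4A2 (0.198) and TRIP6 (0.2). The median over all tested genes was 1.09. LAPTM4A encodes a lysosomal membrane protein, SLC4A2 an anion exchanger and TRIP6 a LIM-domain protein of focal adhesions. Their log2 fold changes for both guides together were -1.54, -1.47 and -1.64, beside -1.44 for DAG1.

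The remaining genes of the pathway were taken from lists of known partners. The list of matrix ligands of integrins and dystroglycan also held the TGF-beta genes and LTBP1, for latent TGF-beta and its anchor. Of its 28 genes, 18 were tested. For both guides together 6 were called lower and 1 higher, beside 11.0% and 8.14% of all genes tested, with a median log2 fold change of -0.45 beside 0.02 over all tested genes. LTBP1, which anchors latent TGF-beta in the matrix, fell from 57.1 ± 18.5 CPM in gCtl (SD, n = 5) to 14.8 ± 9.86 with a guide (n = 5; log2 fold change -1.95, edgeR adjusted p = 0.00324). Its mean was 21.4 CPM in g1 and 4.82 in g2, a difference of -2.14 between guides (adjusted p = 0.00393). TGFB2 fell from 4.06 ± 0.271 to 1.07 ± 0.739 CPM (-1.90, adjusted p = 0.00394), but on few counts. They were 15.1, 23.6, 21.6, 17 and 23.7 in gCtl, 14, 3 and 9 in g1 and 3 and 5 in g2. VTN, encoding the beta 5 ligand vitronectin, rose from 112 ± 16.8 to 184 ± 24.6 CPM (0.72, adjusted p = 0.00278). With g2 10 of the 18 were called lower and 0 higher (median -0.85), beside 13.0% and 10.7% of all genes tested. Those lower with g2 included LAMA1, LAMB1, LAMB2, LAMC1 and FN1. With g1 it was 6 lower and 1 higher, VTN (median -0.20), beside 9.91% and 6.81% of all genes tested. Between the guides 4 of the 18 were called, all lower with g2 (LTBP1, LAMC1, FN1 and COL4A5). Over all genes tested, 3.42% were called lower and 1.55% higher in that comparison. COL4A5 was low, with a mean of 3.24 CPM in g1 and 0.342 in g2. LAMC1, the laminin gamma 1 chain, differed by -1.31 (SE 0.20, adjusted p = 0.00175), at 189 and 196 CPM in g2 and 386 to 540 in g1.

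All 18 genes listed for dystroglycan glycosylation passed the filter, DOLK and the DPM genes of the dolichol carrier included. For both guides together 6 of the 18 were called lower and 1 higher, beside 11.0% and 8.14% of all genes tested. DPM1, DPM3 and DOLK were among those called lower. The list's median was -0.11 beside 0.02. LARGE2 (listed as GYLTL1B), a xylosyl- and glucuronyltransferase that builds the laminin-binding repeat, fell from 9.67 ± 2.41 CPM (SD, n = 5) to 3.11 ± 1.38 (n = 5; -1.66, edgeR adjusted p = 0.00329). DOLK, a kinase for the dolichol carrier, fell by 2.76 on the log2 scale (adjusted p = 0.0117), but on few counts: 12, 8, 17, 12 and 2 in gCtl, 0, 1 and 2 in g1 and 5 and 1 in g2. RXYLT1 (listed as TMEM5), a ribitol-phosphate xylosyltransferase, rose from 14.9 ± 2.12 to 22.3 ± 3.54 CPM (0.59, adjusted p = 0.0213). POMT2, part of the enzyme pair that starts the chain, was called higher with g1 (0.76, adjusted p = 0.00362) and lower with g2 (-0.93, adjusted p = 0.00337), with a difference of g2 from g1 of -1.69 (SE 0.21, adjusted p = 0.000468).

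**Figure D4:**
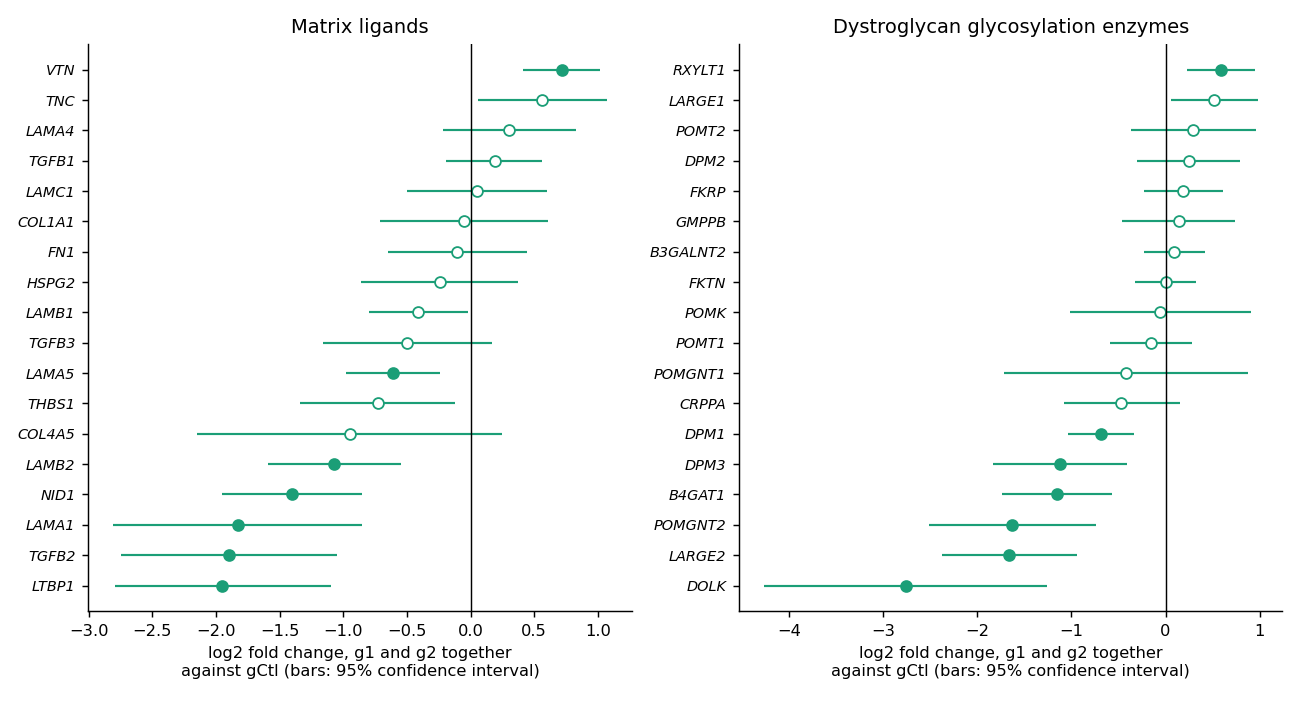
Log2 fold change of both guides together against gCtl (x axes, 5 against 5 libraries) for the 18 tested genes of the matrix ligand list and the 18 listed for dystroglycan glycosylation. Bars are 95% confidence intervals and filled points are called, from LTBP1 (-1.95) to VTN (0.72) in the ligand list and from DOLK (-2.76) to RXYLT1 (0.59) in the other.

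Of the dystrophin-glycoprotein complex, 8 of 16 genes were tested, 2 were called lower and 0 higher for both guides together (all genes, 11.0% and 8.14%), and the median was 0.33 beside 0.02 over all genes. UTRN, encoding utrophin, which ties beta-dystroglycan to actin outside muscle, fell from 261 ± 41.6 CPM (SD, n = 5) to 127 ± 37.2 (n = 5; -1.05, edgeR adjusted p = 0.00179). SNTB2, a syntrophin adaptor, fell from 86.5 ± 8.58 to 53.6 ± 5.16 CPM (-0.69, adjusted p = 0.00145). DMD was called lower with g2 against gCtl (-0.92, adjusted p = 0.00656) and against g1 (-1.41, adjusted p = 0.00253). With g1 it went the other way, with every g1 library above every gCtl library, but was not called (0.50, adjusted p = 0.0513). SSPN was called higher with g1 (1.74, adjusted p = 0.0341), from a mean of 1.21 CPM in gCtl to 4.04 in g1.

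Of the hemidesmosome partners all 7 were tested, 1 was called higher and 1 lower for both guides together (all genes, 8.14% and 11.0%), with a median of 0.16 beside 0.02. DST, which encodes the plakin BPAG1 among other isoforms, rose from 244 ± 23.6 to 621 ± 281 CPM (SD, n = 5 each; 1.35, edgeR adjusted p = 0.00132), with g1 libraries from 328 to 1078. CD151, the tetraspanin bound to laminin receptors, fell by 0.77 on the log2 scale (adjusted p = 0.0182), and was lower with g2 than with g1 (-0.97, adjusted p = 0.0121).

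Of the other 17 integrin subunits 5 were tested, and for both guides together 1 was called lower and 0 higher (all genes, 11.0% and 8.14%). The called subunit was ITGA9, from 4.24 ± 1.64 CPM (SD, n = 5) to 1.76 ± 0.615 (n = 5; -1.26, edgeR adjusted p = 0.0265). Its counts were few, 10 to 34 per gCtl library, 9 to 15 in g1, and 4 and 14 in g2. By guide, ITGA9 was called with g2 (-1.58, adjusted p = 0.0405) but not with g1 (-1.08, adjusted p = 0.0964). Of the proteins that bind integrin tails 20 were tested and 1 was called for both guides together (all genes, 11.0% lower and 8.14% higher), KANK2, a talin-binding adaptor, which fell by 0.89 on the log2 scale (adjusted p = 0.00454). Of 12 trafficking genes tested, edgeR called 0 in either direction for both guides together (all genes, 11.0% lower and 8.14% higher). At an unadjusted p under 0.05, 1 was lower (GIT1) and 2 were higher (VPS35 and ARF6). VPS35 also passed after adjustment (edgeR adjusted p = 0.0245) and missed the call only by its fold change, 1.39 against the minimum of 1.5. GIT1 (adjusted p = 0.0716) and ARF6 (adjusted p = 0.123) did not pass. DESeq2 called 0, and limma on TPM called GIT1 and RAB25 lower and VPS35 higher.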

How the data were processed

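RNA was measured by 3' mRNA sequencing in 10 libraries of 3 groups taken from the sample labels. The authors pseudoaligned single-end reads with Kallisto (listed as 42.5 in the submitters' processing notes) to GENCODE v24 transcripts and deposited estimated counts per transcript, not normalized and not pooled. Where a read fits several transcripts, Kallisto divides it between them, as for ITGB1 and ITGB1P1.

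Here the estimated counts were summed per gene and rounded. Genes with a protein-coding transcript and RPM above 3 in 20% of libraries were tested (11640 of 60554) with edgeR 4.0.16 (quasi-likelihood, TMM) in R 4.3.3. Both guides together were compared with gCtl in a 2-group fit, and g1, g2 and their difference in a 3-group fit. Benjamini-Hochberg adjustment ran over all genes tested, and called means adjusted p at most 0.05 and fold change at least 1.5. DESeq2 1.42.0, limma 3.58.1 on log2(TPM + 1), other scalings, filters and left-out libraries were alternatives. The common biological coefficient of variation was 0.205. The 2-group fit was tried on simulated counts drawn with the same spread for every gene. The 3-group fit was not tried on simulated counts.

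Members of one group were checked for repeated deposits: over 14 pairs, chi-square per degree of freedom was 4.25 to 24.3, so none agreed within sampling noise. Coordinates are from GENCODE v29 (GRCh38), matched by gene ID. Transcript 31-mers came from the same release. Promoter windows came from RefSeq, where 8 of the 10 genes matched (not ITGA3 and ITGB4).

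The 10 genes and the 7 lists were chosen with earlier results of these data known. All 10 are named, and for each list at most 2 called increases and 2 called decreases for both guides together, by size, and any gene of a count of 5 or fewer. Others (LAMA1, LAMB1, LAMB2, LAMC1, FN1, COL4A5, POMT2, DPM1, DPM3, DMD, SSPN, GIT1, VPS35, ARF6, RAB25) were named after their values were seen. Counts limit precision: 1 count is less than 1 CPM in every library.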

Additional observations from a re-analysis of the deposited data

Results flagged for a closer look

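The difference of ITGB5 between the guides passed the test of the difference itself, with a log2 fold change of g2 against g1 of -0.75 (edgeR adjusted p = 0.0479) and both g2 libraries below all 3 g1 libraries.

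In gCtl, ITGB6 in replicate 3, at 0.872 CPM from 5 counts, was far from the other 4 libraries by Dixon's test, with a gap of 0.756 of the group's range against a critical value of 0.71. Chance flags about 1 in 20 groups, and 10 were tested, 1 for each gene.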

How the results depend on the processing

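For both guides together, members called went from 3 to 1 under limma on log2(TPM + 1). For g1 they went from 3 to 1 under limma and to 1 under glmTreat with a 1.5-fold minimum in its null. For g2 against g1 the 1 called member (ITGB5) became 0 under glmTreat, with DESeq2 size factors, over all biotypes, over protein-coding transcripts and in a fit of g1 and g2 alone, and ran from 0 to 1 when single libraries were left out. All genes called, under glmTreat, were 488 of 2232 for both guides together, 506 of 1947 for g1, 802 of 2756 for g2 and 92 of 579 between guides. Between guides they were 310 over protein-coding transcripts and 159 with g1 and g2 alone. Leaving out single libraries gave 1258 (without g1 replicate 3) to 2260 for g1, 1503 (without g2 replicate 2) to 3127 for g2, where the 1 g2 library left is assumed to vary like the other groups, and 266 (without g1 replicate 1) to 865 between guides, with 313 without g1 replicate 2. glmTreat asks for more than the main test by construction, and the cause of the others was not tested.

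Signs turned only for members not called. For both guides together, ITGA2 was -0.03 under limma and from -0.30 to 0.30 with libraries left out, ITGA6 -0.04 with library totals and -0.13 to 0.12, and ITGAV -0.09 with library totals, -0.03 over all biotypes, -0.00 over protein-coding transcripts and -0.10 to 0.12. For g1, ITGA2 ran from -0.18 to 0.72, ITGA6 from -0.09 to 0.30, and ITGAV from -0.30 to 0.07 and was 0.12 under limma. For g2, ITGAV ran from -0.09 to 0.39. Between guides, ITGA1 ran from -0.01 to 0.45 and ITGB1 from -0.43 to 0.20. DAG1 and ITGB5 stayed negative against gCtl under all alternatives run, DAG1 from -1.90 to -0.37 and ITGB5 from -1.81 to -0.77.

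No paired analysis was possible because the labels give no replicate numbers. ITGA3 has no value over protein-coding transcripts, where it had 0 counts. Low members (ITGA3, ITGB4, ITGB6) are limited by depth, and g2 has 2 libraries.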
